A study of Rattus norvegicus with 23 samples.

Results

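The contractile genes of smooth muscle were followed across 6 regions of the rat heart and its great vessels. The set held 32 genes, chosen by name as genes of the smooth muscle contractile apparatus, its anchors and its regulators, out of 16538 genes with a probe and complete deposited signals on the array. All 32 had at least 1 probe (53 probes in all, 17 genes with a single probe), and all 32 were among the 16084 genes that passed the filter on low values. On all 23 arrays, 29 of the 32 were well above background. The exceptions were Cnn1, which missed it on 1 LA and 1 LV array, Kcnmb1, which missed it on 1 LA array, and Prkg1, which missed it on 2 LV and 2 RV arrays.

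RNA came from untreated male Wistar rats of 8 to 11 weeks, a wild-type stock, 12 animals in the whole experiment. The regions were left atrium (LA, taken next to the pulmonary vein), left ventricle (LV), right ventricle (RV, from its free wall), sinoatrial node region (SA), pulmonary vein (PV) and pulmonary artery (PA). There were 4 arrays for each region but RV, which had 3, and each SA sample pooled 2 rats. The labels do not say which samples came from 1 animal, and per the methods an LV was cut into 3 pieces that served as samples, so LV arrays may share an animal and p-values measure the spread between these samples. Every region was a piece of whole tissue, and in such samples fewer cells of a type and less RNA per cell cannot be told apart. LA, LV and RV together are called the chambers below, and a comparison with the chambers is with the equal mean of the 3.

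Smooth muscle cells line the wall of arteries and veins and set the width of the vessel. Force comes from smooth muscle myosin pulling on actin filaments, and it is switched on when calcium and calmodulin activate myosin light chain kinase and switched off by myosin phosphatase. Nitric oxide relaxes the cell through guanylate cyclase, cGMP and cGMP-dependent protein kinase. Serum response factor and its partner myocardin drive many of these genes, and several of the same proteins, or closely related forms of them, also build the sarcomere of heart muscle. In rodents heart muscle extends along the pulmonary vein as a sleeve, whereas the wall of the pulmonary artery is made of smooth muscle.

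The deposited signal had been scaled to a common 90th percentile, which ran from 3984 to 3988, so this evenness was set by the scaling. The factor from scanner to deposited signal ran from 0.88 on LA1 to 1.52 on PA2. Deposited medians ran from 102.7 on LA2 to 136.3 on LA4, and no spot was saturated. Spearman correlations between arrays of 1 region ran from 0.975 to 0.991. The share of probes well above background ran from 72.7% to 79.8% on the 11 arrays of the first row of the slides and from 58.6% to 69.4% on the 12 arrays of the second row. PV and SA had only 1 array each in the first row, PV2 and SA2. Chamber markers were as follows. Myl7, the atrial regulatory light chain, was 18.83 ± 0.14 (SD, n = 4) in LA, 15.73 ± 0.80 (n = 4) in LV and 14.92 ± 0.83 (n = 3) in RV on the log2 scale, and Myl2, the ventricular one, was 14.37 ± 0.75 in LA, 19.10 ± 0.14 in LV and 18.90 ± 0.16 in RV. The SA samples were not checked here against pacemaker cell markers, whereas the authors checked their rat dissection by HCN4 on these arrays. The linear signal summed over 16 cardiac muscle markers was 152288 to 281898 in PA, 3719800 to 3917940 in PV, 4171580 to 4618510 in SA and 2905630 to 5298400 in the chambers. Actc1, the cardiac alpha-actin, was still at 16.61 ± 0.12 (SD, n = 4) in PA on the log2 scale.

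PA stood above the chambers in most of the 32 genes. Of the 32 genes, 26 were higher in PA than in the chambers and 5 were lower (limma across all genes, Benjamini-Hochberg adjusted p under 0.05), where 30.0% of all genes tested were higher and 28.1% lower (58.1% in either direction). The number of lower genes ran from 3 to 5 when 1 array was left out, and was 2 against LA alone. The median difference of the 32 was 3.37 on the log2 scale, against 0.03 for all genes. In PV, 21 were higher than in the chambers and 0 lower, with a median of 0.98 (all genes −0.07), and 11.6% of all genes were called higher and 13.1% lower (24.7% in all). In SA, 18 were higher and 0 lower, with a median of 0.51 (all genes −0.03), and 8.97% of all genes were called higher and 11.7% lower (20.7% in all). At an unadjusted p under 0.05 no member was lower in PV or SA by its highest probe either (19.8% and 17.5% of all genes were). By limma over 43522 probes, single probes of Myocd (A_43_P16168, −0.45, adjusted p = 0.0268) and Ppp1r12b (A_44_P508549, −0.40, adjusted p = 0.00880) were lower in PV. The 3 comparisons with the chambers share the 11 chamber arrays.

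**Figure D1:**
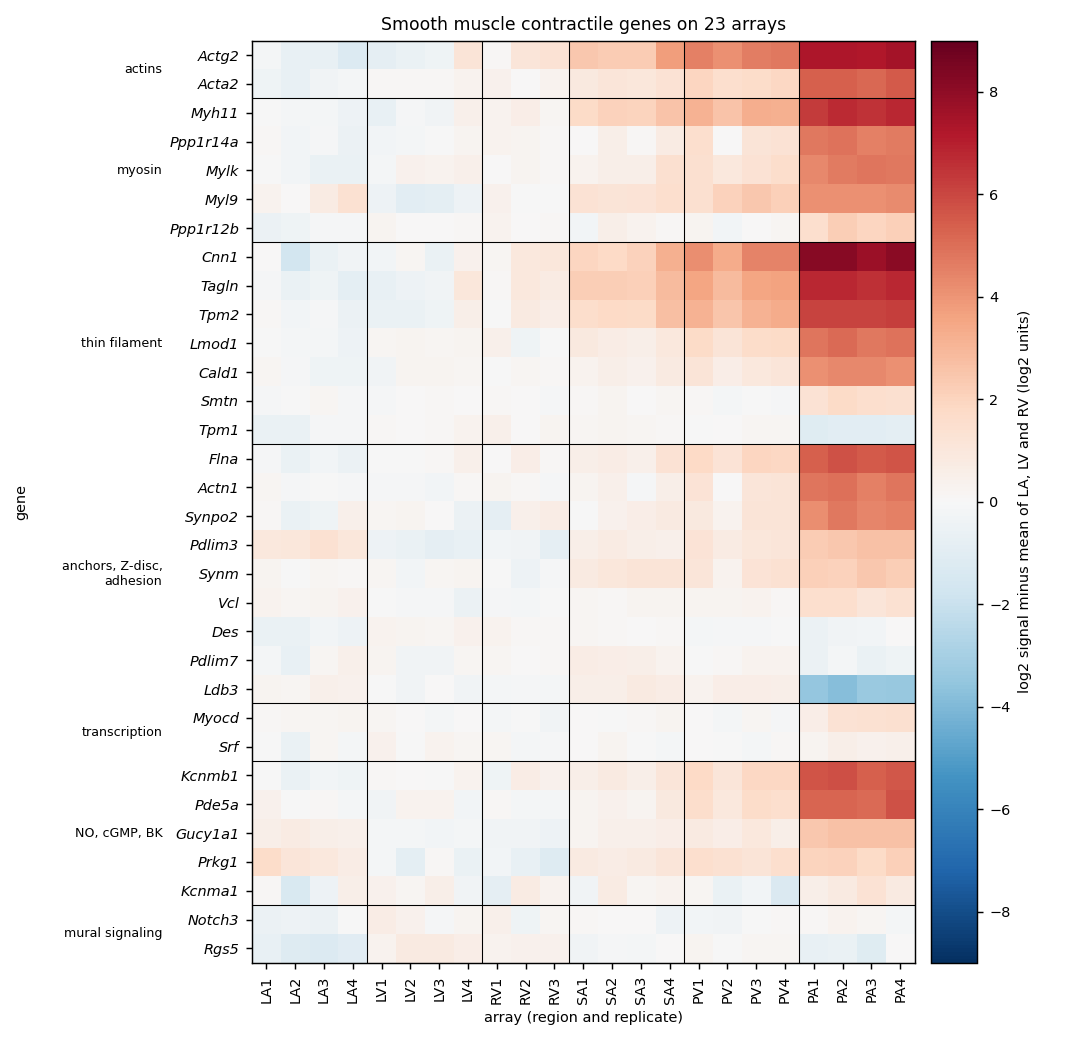
Level of the 32 genes (rows, by role) on the 23 arrays (columns, by region), as the log2 signal minus the mean of LA, LV and RV in log2 units. The mean of PA reaches 8.03 for Cnn1, PV and SA are paler red for the leading genes, and Ldb3 is blue in PA on 4 of 4 arrays.

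Arrays of PA lay above all 11 chamber arrays for 24 of the 32 genes, where this held for 19.2% of all genes, and below all of them for Ldb3 and Tpm1 (17.3% of all genes). For PV the separation from the chambers was complete for 14 genes (2.89% of all genes) and for SA for 10 (2.39%), with 0 genes below all chamber arrays in either (2.20% and 2.79% of all genes). In 16 of the 32 genes the region means were ordered PA, PV, SA and then every chamber. These 16 were both actins, the myosin genes Myh11, Myl9, Mylk and Ppp1r14a, the thin filament genes Tagln, Cnn1, Cald1, Tpm2 and Lmod1, the anchors Synpo2, Flna and Actn1, and Pde5a and Kcnmb1.

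**Figure D2:**
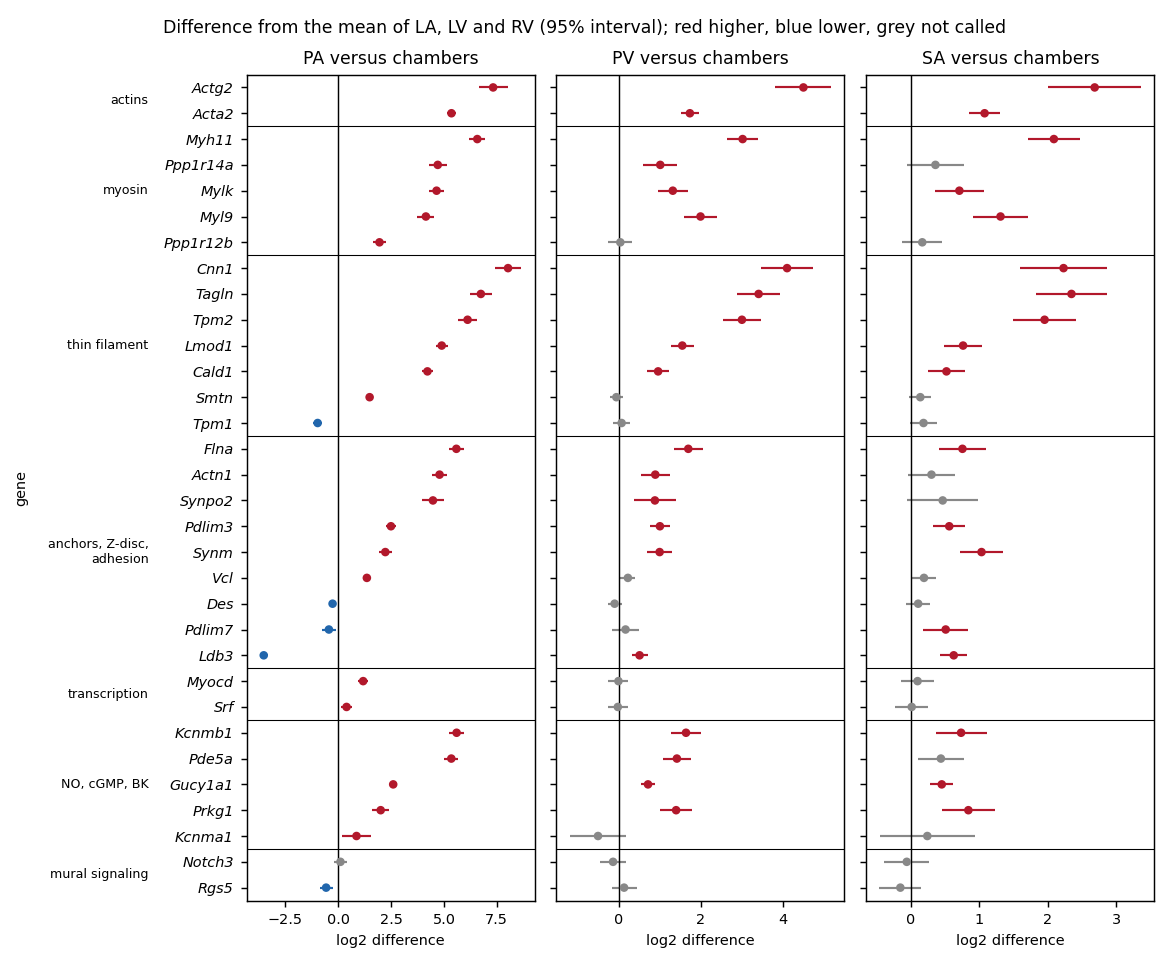
Difference of PA, PV and SA from the mean of LA, LV and RV for each of the 32 genes, on the log2(signal + 1) scale with 95% intervals; the 3 horizontal axes differ. PA differences reach 8.03 (Cnn1), PV differences 4.50 (Actg2) and SA differences 2.69 (Actg2), and Ldb3 is at −3.53 in PA but above 0 in PV and SA.

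Promoter sequence was read because serum response factor, 1 of the 32, binds the CArG box. Promoter windows of 300 bases (250 before the start, 50 after it) from RefSeq, build GRCr8, matched 26 of the 32 genes by symbol, all but Myh11, Tagln, Lmod1, Myl9, Myocd and Pdlim3. A complete CArG box was found in 2 of the 26 genes (7.69%) and in 1.77% of the 27457 genes with a window. The box reads the same on both strands, so 1 search covers both. With 1 mismatch allowed, 8 of the 26 had a match (30.8%), against 22.5% of all genes. The 2 genes with complete boxes are shown as the 150 bases before the start, 5′ to 3′, together with Acta2, whose matches each hold 1 mismatch and whose levels are given next. Capitals mark the complete boxes of Srf and Ldb3 and the near matches of Acta2, and a further match with 1 mismatch in Srf is left in lower case.
Srf, chr9:21923926-21924075, plus strand, boxes from −81 and −61: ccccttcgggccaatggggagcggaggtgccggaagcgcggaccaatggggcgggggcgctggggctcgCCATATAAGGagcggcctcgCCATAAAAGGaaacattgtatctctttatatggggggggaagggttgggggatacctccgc
Ldb3, chr16:9924680-9924829, minus strand, box from −52: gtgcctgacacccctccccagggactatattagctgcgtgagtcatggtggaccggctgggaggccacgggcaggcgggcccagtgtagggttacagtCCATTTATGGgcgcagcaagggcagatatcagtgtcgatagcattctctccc
Acta2, chr1:241172504-241172653, minus strand, near matches from −134 and −84: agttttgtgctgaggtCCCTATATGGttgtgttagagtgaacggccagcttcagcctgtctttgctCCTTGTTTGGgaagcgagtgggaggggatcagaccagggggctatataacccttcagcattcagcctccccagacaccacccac
A match describes these letters only, and its absence from a window says nothing of the factor. Of the genes shown, Acta2 was among the strongly higher genes in PA, Srf was the least raised of those called higher, and Ldb3 was the most lowered.

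Both actins were much higher in PA, and both were higher in PV and SA as well. Acta2, the vascular alpha-actin, read 16.05, 16.11, 15.87 and 16.20 on the PA arrays, 12.64, 12.19, 12.33 and 12.58 in PV, and 11.58, 11.77, 11.74 and 12.01 in SA. In the chambers it ran from 10.02 through a median of 10.77 to 11.08, below every PV, SA and PA array. The PA difference was 5.35 ± 0.11 (SE, log2), or 40.9-fold (adjusted p = 1.13e-18), against 3.33-fold in PV and 2.11-fold in SA. Actg2, the gamma-actin of visceral smooth muscle, read 17.93, 17.97, 17.91 and 18.16 in PA, 15.20, 14.81, 15.24 and 15.42 in PV and 13.09, 12.95, 12.95 and 14.41 in SA. Chamber values lay between 9.43 and 11.97 with a median of 10.26. Its differences were 160.5-fold in PA (adjusted p = 1.14e-13), 22.7-fold in PV and 6.43-fold in SA, and SA4 stood above the other SA arrays.

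**Figure D3:**
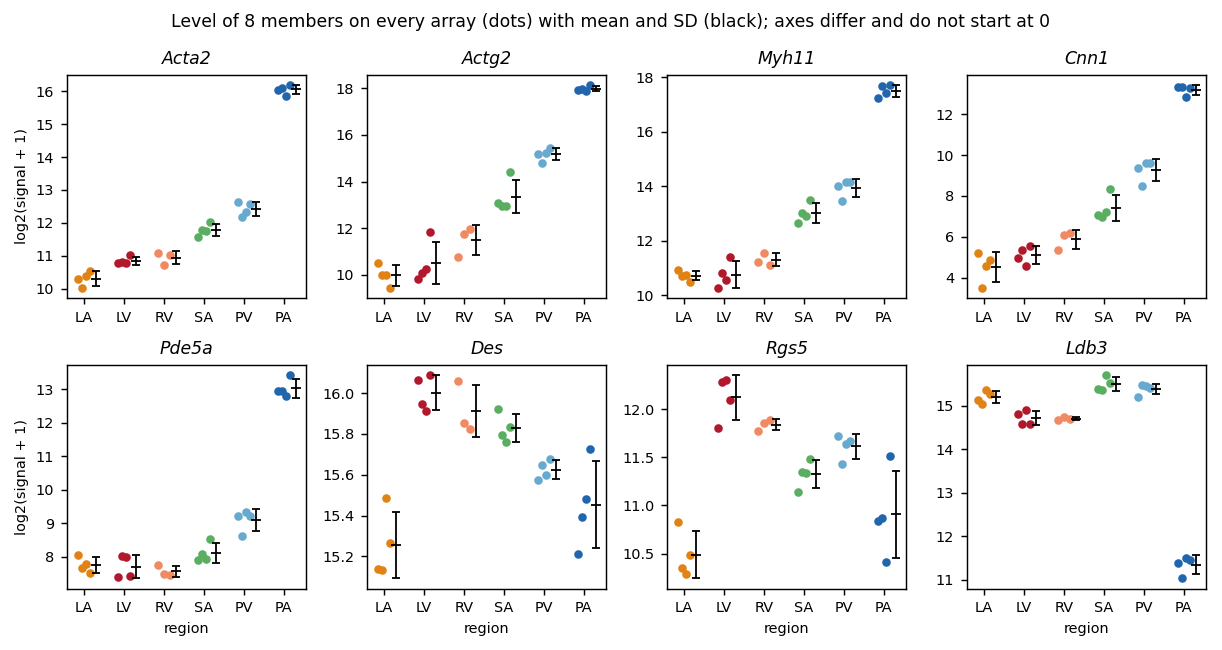
Level of 8 of the genes on each array as log2(signal + 1), by region, with the mean and SD of each region in black; the vertical axes differ and do not start at 0. Acta2, Actg2, Myh11, Cnn1 and Pde5a step from the chambers through SA and PV to PA, Des and Rgs5 are lowest in LA, and Ldb3 drops in PA alone.

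Myosin and its regulators were higher in PA in 5 of 5 cases, in PV in 4 and in SA in 3. Myh11, the smooth muscle myosin heavy chain, read 17.24, 17.67, 17.40 and 17.70 in PA, 14.02, 13.46, 14.16 and 14.14 in PV and 12.65, 13.00, 12.91 and 13.50 in SA. Its chamber levels ran from 10.26 through 10.80 to 11.56, so that the 3 other regions did not overlap them. The fold over the chambers was 95.5 in PA (log2 6.58 ± 0.18, adjusted p = 1.00e-16), 8.12 in PV and 4.25 in SA. Ppp1r14a, the inhibitor of myosin phosphatase known as CPI-17, was 26.1-fold higher in PA and 2.02-fold higher in PV, and Mylk, the light chain kinase, 25.1-fold and 2.50-fold. Myl9, the regulatory light chain, was 17.7-fold higher in PA, 3.99-fold in PV and 2.48-fold in SA. Ppp1r12b, a targeting subunit of myosin phosphatase, had the smallest PA difference of the group, 1.95 ± 0.14 on the log2 scale (adjusted p = 2.25e-10). Its PA arrays read 11.69, 12.38, 12.10 and 12.33, its PV arrays 10.41, 9.90, 10.22 and 10.33, its SA arrays 9.91, 10.68, 10.49 and 10.27, and its chamber arrays 9.65 to 10.50 with a median of 10.22. PV and SA thus lay within or near the chamber range for Ppp1r12b, with differences of 0.04 ± 0.14 and 0.16 ± 0.14. Its probes disagreed in PA, at 2.08, −0.11 (not called) and −1.50, and with the mean of all probes the PA difference was 0.22 (adjusted p = 0.107).

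Among 7 thin filament genes, 6 were higher in PA and Tpm1 was lower, and 5 were higher in both PV and SA. Cnn1, calponin, which binds actin and restrains myosin, had the largest fitted difference of the set. Its PA arrays read 13.34, 13.34, 12.83 and 13.29, its PV arrays 9.36, 8.48, 9.63 and 9.62, and its SA arrays 7.08, 6.96, 7.22 and 8.34. Chamber levels were 3.49 to 6.17 with a median of 5.20 and lay at the edge of detection. The fitted log2 difference in PA was 8.03 ± 0.30 (adjusted p = 8.92e-15), and 7.91 when the 2 chamber values that were not well above background were raised to the lowest signal detected on their arrays. With normexp background correction it was 6.33, below Actg2 (7.63), Tagln (6.89) and Myh11 (6.76) in the same setting. That setting adds an offset of 50 to every signal, which shrinks the differences of low genes such as Cnn1. Tagln (SM22-alpha, an actin-binding marker of smooth muscle) was 107-fold higher in PA, 10.6-fold in PV and 5.08-fold in SA. Tpm2, beta-tropomyosin, followed with 69.4-fold, 8.03-fold and 3.87-fold. Probe A_64_P144482 of Tpm2 differed by only 2.92 in PA, and the mean of all probes gave 5.09 on the log2 scale. Lmod1, which nucleates actin filaments in smooth muscle, was 29.7-fold and Cald1, caldesmon, 18.6-fold higher in PA. The other Lmod1 probe, A_64_P103615, differed by 6.90 in PA, and the mean of both gave 5.90. That probe was well above background on only 2 LA, 0 LV and 2 RV arrays, so the size of both values is uncertain. Smtn, smoothelin, was 2.79-fold higher in PA, with differences of −0.06 ± 0.08 in PV and 0.13 ± 0.08 in SA (log2, neither called).

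Tpm1, alpha-tropomyosin, binds actin in heart and smooth muscle alike and was lower in PA by the highest probe. Its levels were 17.01, 17.14, 17.14 and 17.26 in PA, 18.08, 18.14, 18.26 and 18.26 in PV, 18.29, 18.36, 18.30 and 18.23 in SA and 17.48 to 18.54 in the chambers (median 18.16). All 4 PA arrays lay below all others, by −0.98 ± 0.10 on the log2 scale against the chambers (adjusted p = 2.86e-08). The 4 probes of Tpm1 did not move together. Probe A_44_P1086155, designed on another Tpm1 transcript than the other 3, was higher in PA by 5.36 (adjusted p over 43522 probes = 5.03e-16), in PV by 1.87 and in SA by 0.95. The other 3 probes were lower in PA by −2.42 to −2.72 and differed from the chambers by −0.01 to 0.21 in PV and SA, with none of those called. The first probe was the highest of the 4 on the PA arrays and on none of the others, so that the gene level is read from different probes in PA and in the other regions.

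**Figure D4:**
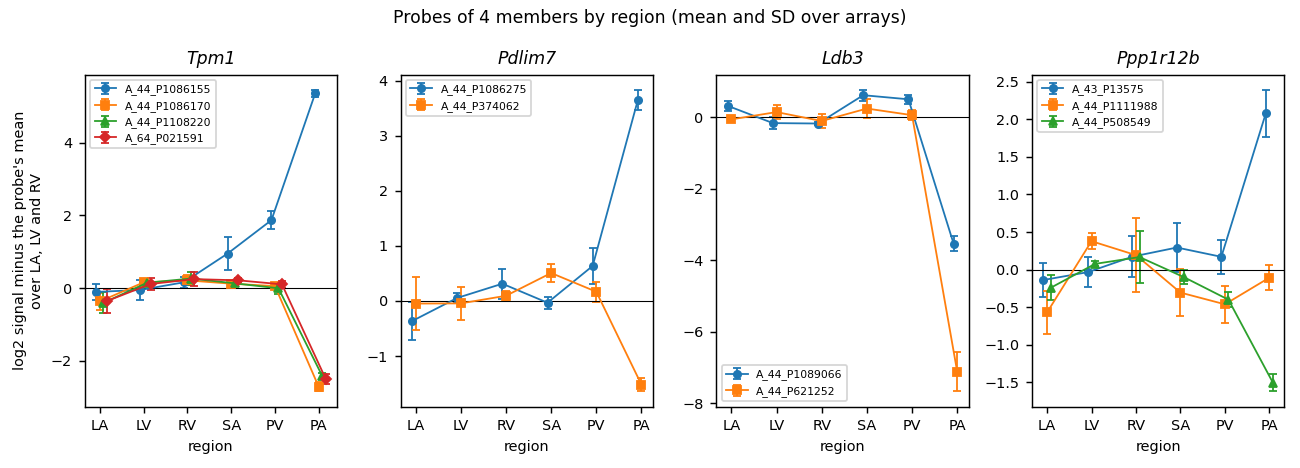
Probes of Tpm1, Pdlim7, Ldb3 and Ppp1r12b by region, each as the log2 signal minus that probe's mean over LA, LV and RV (mean and SD over arrays). In PA 1 probe of Tpm1, 1 of Pdlim7 and 1 of Ppp1r12b rise (5.36, 3.65 and 2.08) while others of the same gene fall, and both Ldb3 probes fall (−3.53 and −7.11).

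By the highest probe, filament anchors, Z-disc and adhesion proteins were the most divided group, with 6 of 9 higher in PA and 3 lower. The 3 were Ldb3, Des and Pdlim7, and the calls of Des and Pdlim7 changed with the setting, as given below. Flna, filamin A, which cross-links actin and ties it to the membrane, led the group. On the PA arrays Flna read 15.71, 16.04, 15.86 and 15.98, in PV 12.07, 11.50, 12.27 and 12.17, in SA 10.86, 11.01, 10.73 and 11.63, and in the chambers 9.72 to 10.93 (median 10.27). That made it 48.1-fold higher in PA (adjusted p = 2.85e-16), 3.24-fold in PV and 1.68-fold in SA, where SA overlapped the chambers. Actn1, the non-sarcomeric alpha-actinin, was 27.7-fold higher in PA, and Synpo2, an actin-bundling partner of it, 22.3-fold (log2 4.48, or 3.58 with normexp). In PV they were 1.86-fold and 1.84-fold higher, and Synpo2 lost its call there without PV3 (adjusted p = 0.0533) or PV4 (0.0562). Synm, synemin, an intermediate filament protein that joins desmin filaments, was 4.68-fold higher in PA and 2.04-fold higher in SA, and was called higher in PV too (adjusted p = 4.74e-05). Vcl, vinculin, was 2.55-fold higher in PA, with 1.17-fold in PV and 1.14-fold in SA, neither called.

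Pdlim3, a PDZ and LIM domain protein of the Z-disc, was 5.62-fold higher in PA, 2.01-fold in PV and 1.47-fold in SA when set against the 3 chambers. By its highest probe, Pdlim3 was itself high in LA. It read 15.18, 15.26, 15.61 and 15.30 in LA against 13.43 to 14.02 in the ventricles, and 15.46, 14.95, 15.26 and 15.32 in PV. Against LA alone the log2 difference was −0.09 in PV (adjusted p = 0.763) and −0.54 in SA (adjusted p = 0.0112).

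Ldb3, which encodes the Z-disc protein ZASP or Cypher of striated muscle, was the most lowered gene in PA. It read 11.39, 11.04, 11.51 and 11.47 in PA, 15.21, 15.48, 15.45 and 15.41 in PV, 15.40, 15.37, 15.71 and 15.53 in SA and 14.57 to 15.35 in the chambers (median 14.82). PA was 11.5-fold lower than the chambers (log2 −3.53 ± 0.09, adjusted p = 4.89e-17), while PV and SA were higher by 0.51 ± 0.09 and 0.62 ± 0.09 (adjusted p = 0.000382 and 5.95e-05). Its second probe, A_44_P621252, was lower in PA by −7.11 and differed by 0.07 in PV and 0.25 in SA, neither called. Against LA alone, Ldb3 was no longer called in PV (0.18, adjusted p = 0.343) or SA (0.30, adjusted p = 0.0825), and with the mean of both probes it was not called in PV (0.29, adjusted p = 0.0675).

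Des, desmin, the intermediate filament of heart, skeletal and smooth muscle, varied over less than 1 log2 unit across all 23 arrays. The values were 15.21, 15.39, 15.48 and 15.73 in PA, 15.57, 15.65, 15.60 and 15.68 in PV, 15.92, 15.79, 15.76 and 15.83 in SA, and 15.13 to 16.09 in the chambers (median 15.85). PA overlapped the chambers, and its difference of −0.27 ± 0.08 (adjusted p = 0.00761) became 0.17 under quantile normalization (adjusted p = 0.0738) and 0.07 with normexp background correction (adjusted p = 0.495). Without PA1 it was −0.19 (adjusted p = 0.0593), and against LA alone 0.20 (adjusted p = 0.108).

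Pdlim7, a PDZ and LIM domain protein also called enigma, gave opposite answers by probe. By the highest probe it read 12.58, 12.93, 12.49 and 12.71 in PA, 13.06, 13.24, 13.44 and 13.41 in PV, 13.76, 13.72, 13.62 and 13.41 in SA and 12.48 to 13.58 in the chambers (median 13.24). That put PA lower by −0.44 ± 0.16 (adjusted p = 0.0186) and SA higher by 0.51 ± 0.16 (adjusted p = 0.0249). Probe A_44_P374062, the highest on all LA, LV, RV, SA and PV arrays, was lower in PA by −1.52, and probe A_44_P1086275, the highest on all PA arrays, was higher there by 3.65 (12.58, 12.93, 12.49 and 12.71 in PA against 8.29 to 9.64 in the chambers). With the mean of both probes PA was higher by 1.06 (adjusted p = 1.71e-08). The PA call was lost without PA1 (adjusted p = 0.0549) or PA3 (0.0726), and the SA call without SA1 (0.0841), SA2 (0.0743) or SA3 (0.0616).

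The transcription factors differed less between regions than most of the contractile genes. Myocd, myocardin, a coactivator made in heart and smooth muscle, read 10.67, 11.36, 11.40 and 11.52 in PA, 10.09, 9.91, 10.24 and 9.97 in PV, 10.13, 10.05, 10.13 and 10.31 in SA and 9.74 to 10.29 in the chambers (median 10.12). PA lay above all other arrays and was 2.26-fold higher than the chambers (adjusted p = 2.68e-08), while PV and SA differed by −0.01 ± 0.12 and 0.09 ± 0.12 on the log2 scale. Srf, serum response factor, whose own promoter held 2 CArG boxes, read 14.14, 14.40, 14.30 and 14.33 in PA, 13.93, 13.87, 13.74 and 13.99 in PV, 13.92, 14.16, 13.86 and 13.70 in SA and 13.32 to 14.29 in the chambers (median 13.88). The PA difference was 1.31-fold (log2 0.39 ± 0.12, adjusted p = 0.00662), and PA overlapped LV.

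Genes of relaxation by nitric oxide, cGMP and the large-conductance BK channel were higher in PA in 5 of 5 cases, in PV in 4 and in SA in 3. Kcnmb1, the beta subunit that raises the calcium sensitivity of the BK channel, had the largest fitted difference, though Pde5a (4.85 in PA on the log2 scale) passed it with normexp. Kcnmb1 read 11.83, 11.99, 11.57 and 11.79 in PA, 7.97, 7.28, 8.03 and 8.06 in PV, 6.69, 7.02, 6.69 and 7.29 in SA and 5.56 to 6.87 in the chambers (median 6.16). It was 48.5-fold higher in PA (adjusted p = 6.99e-16), 3.12-fold in PV and 1.66-fold in SA. With normexp background correction its log2 differences were smaller, at 4.55, 1.03 and 0.37. Pde5a, the phosphodiesterase that degrades cGMP and the target of sildenafil, was 40.7-fold higher in PA and 2.67-fold in PV, and its SA difference of 0.44 ± 0.16 was not called (adjusted p = 0.0658). Gucy1a1, a subunit of the nitric oxide receptor guanylate cyclase, was 6.05-fold, 1.64-fold and 1.36-fold higher in PA, PV and SA. Prkg1, the cGMP-dependent kinase, was 4.02-fold, 2.64-fold and 1.79-fold higher, but against chamber levels not well above background on 4 arrays. With normexp its differences were 0.88, 0.58 and 0.28 on the log2 scale, the last not called (adjusted p = 0.0758). Both Gucy1a1 and Prkg1 were high in LA, and against LA alone the SA differences were −0.10 (adjusted p = 0.572) and −0.27 (adjusted p = 0.501). The PV differences against LA alone were 0.17 (adjusted p = 0.325) and 0.30 (adjusted p = 0.474), so that neither call held.

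Kcnma1, the pore of the BK channel, varied more within regions than its beta subunit. It read 10.35, 10.66, 11.16 and 10.67 in PA, 10.03, 9.25, 9.59 and 8.52 in PV, 9.52, 10.58, 10.05 and 10.19 in SA and 8.45 to 10.61 in the chambers (median 10.05). The PA difference of 0.86 ± 0.33 was called (adjusted p = 0.0319) but PA overlapped the chambers, and the call was lost without PA2 (adjusted p = 0.0581), PA3 (0.118), PA4 (0.0596) or RV1 (0.0605). The other Kcnma1 probe, A_44_P1151707, was higher in PA by 2.38 (adjusted p = 5.57e-08), and was well above background on 4 of 4 PA arrays but on 1 of 4 SA arrays.

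Neither of the 2 genes of mural cell signaling was called higher in PA, PV or SA than in the chambers. Rgs5, a regulator of G-protein signaling used as a marker of pericytes, read 10.84, 10.87, 10.41 and 11.52 in PA, 11.73, 11.43, 11.64 and 11.67 in PV, 11.14, 11.34, 11.34 and 11.48 in SA, 10.83, 10.35, 10.28 and 10.48 in LA, 11.81, 12.29, 12.31 and 12.10 in LV and 11.78, 11.85 and 11.89 in RV. PA was lower than the chambers by −0.58 ± 0.15 (adjusted p = 0.00191), but the difference was 0.42 against LA alone (adjusted p = 0.0528). Against LA alone Rgs5 was higher in PV by 1.13 (adjusted p = 0.000235) and in SA by 0.84 (adjusted p = 0.00276). Within the 3 slides the difference between PA and the chambers was −1.16, 0.32 and −0.62. Notch3, a receptor on vascular smooth muscle cells and pericytes, read 9.38, 9.64, 9.47 and 9.12 in PA and 8.79 to 9.95 in the chambers (median 9.26). It read 9.06, 8.96, 9.25 and 9.38 in PV and 9.39, 9.35, 9.37 and 8.84 in SA. Its PA difference was 0.10 with a 95% interval from −0.23 to 0.43 (adjusted p = 0.618), and against LA alone it was higher in PA by 0.47 (adjusted p = 0.0422).

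Genes were described as shared with chamber muscle where they were well above background on all 11 chamber arrays and not called higher in PA. This rule leaves out genes high in the chambers but higher in PA, such as Smtn and Srf (means of 14.50 and 13.91 over the chamber arrays). The genes that met it numbered 6: Ldb3, Tpm1, Pdlim7, Des and Rgs5, all lower in PA by the highest probe, and Notch3, not called either way. For Tpm1 and Pdlim7 that call sets unlike probes against each other, since the probe read in PA is not the one read elsewhere, and each of those PA probes was itself higher in PA (5.36 and 3.65), so their place among the 6 rests on the choice of probe. Ldb3, Tpm1 and Des are known parts of the cardiac sarcomere or its filaments, whereas Rgs5 and Notch3 are known from the cells of small vessels. Beside them stand the markers of other cells. All 16 cardiac muscle markers tested were lower in PA than in the chambers, with a median of −5.36, and Mybpc3, cardiac myosin-binding protein C, was well above background on 3 of the 4 PA arrays. In PV 1 of the 16 was higher and 4 were lower, and in SA 2 were higher and 3 lower. Other markers moved in PV and SA as well, some down and some up. Endothelial markers were lower than in the chambers in 4 of 6 cases in PV and 5 of 6 in SA. Macrophage markers were lower in 3 and 4 of 5 cases and lung epithelial markers in 3 and 1 of 6, with 0 higher in these 3 lists. Schwann cell markers were higher than in the chambers in 6 of 6 cases in PV and 3 of 6 in SA, adipocyte markers in 4 and 3 of 5, autonomic neuron markers in 3 and 1 of 5, and fibroblast markers in 3 and 3 of 7 (0 and 4 lower). Schwann cell sums were 12623 to 17452 in PV, 6967 to 7788 in SA and 1617 to 5658 in the chambers, and fibroblast sums 349579 to 521792, 183883 to 368480 and 142605 to 247172. Their part in the PV and SA differences was not tested. The summed signal of 6 pericyte markers was 98591 to 120513 in PA, 20667 to 24805 in PV, 18525 to 21673 in SA and 14775 to 32588 in the chambers. Among those 6, Cspg4, Pdgfrb and Kcnj8 were higher in PA, Higd1b was lower by −3.30, and Abcc9 and Ndufa4l2 were not called. The part of cardiac muscle or pericytes in the levels of the 6 genes was not tested. Of the other lists, PA against the chambers had 0 higher and 5 lower of 6 endothelial markers, 4 and 2 of 7 fibroblast markers, 3 and 2 of 5 adipocyte markers, 0 and 1 of 5 mesothelial markers, 1 and 3 of 6 Schwann cell markers, 2 and 1 of 5 autonomic neuron markers, 0 and 2 of 5 macrophage markers, 1 and 1 of 6 lung epithelial markers, 1 and 3 of 6 skeletal muscle markers and 1 and 0 of 1 airway and visceral smooth muscle marker.

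PA and PV were also set against each other, both being vessels. The PV samples held heart muscle as well. All 16 cardiac muscle markers were lower in PA than in PV (median −5.35) and than in SA (median −5.50). The part of heart muscle in the differences below was not tested. Of the 32 genes, 26 were higher in PA than in PV and 4 lower (29.7% and 23.7% of all genes, 53.4% together), and 25 were higher in PA than in SA and 4 lower (29.0% and 24.5%, 53.6% together). All PA arrays lay above all PV arrays for 26 genes and below them for 3 (26.8% and 21.5% of all genes), and above all SA arrays for 24 and below them for 4 (27.5% and 22.9%). The PA to PV fold was 15.5 for Kcnmb1, 15.2 for both Cnn1 and Pde5a, 12.3 for Acta2, 11.8 for Myh11 and 7.07 for Actg2. The smallest calls were Srf (1.33-fold) and Prkg1 (1.52-fold). The Prkg1 call was lost under quantile normalization (adjusted p = 0.138) and without PA1 (0.0540), PA2 (0.0619), PA4 (0.0718), PV2 (0.0568) or PV3 (0.0779), and the Srf call without PA2 (0.0505) or PV3 (0.0535). Lower in PA than in PV were Ldb3, Tpm1, Rgs5 and Pdlim7, the last turning to 0.66 higher with the mean of its probes. Des (−0.17 ± 0.10) and Notch3 (0.24 ± 0.19) were not called.

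PV against SA gave 9 genes higher in PV and 0 lower, where 2.71% and 0.783% of all genes were called (3.49% together). The 9 were Cnn1 (3.67-fold), Actg2 (3.53-fold), Tpm2 (2.07-fold), Pde5a (1.98-fold), Flna (1.93-fold), Myh11 (1.91-fold), Kcnmb1 (1.88-fold), Lmod1 (1.73-fold) and Acta2 (1.58-fold). At an unadjusted p under 0.05, 18 were higher in PV and 0 lower (9.26% and 6.62% of all genes). Arrays of the 2 regions did not overlap for Acta2, Actg2, Cnn1, Lmod1, Pde5a and Prkg1 (all PV arrays above, 5.95% of all genes), and for Des all PV arrays lay below (5.22%). When only the 8 arrays of these regions were fitted by limma, 0 of the 32 were called in either direction, while 56 of 15440 genes were called higher and 11 lower. At an unadjusted p under 0.05 that fit had 16 of the 32 higher and 2 lower, against 9.11% and 6.98% of all genes. The count fell to 4 without PV4, SA1 or SA3 and to 5 without SA2. Markers that moved with this comparison were those of Schwann cells, 4 of 6 higher in PV than in SA, of autonomic neurons, 3 of 5 higher, with sums of 1934 to 19628 and 1266 to 2040, and of fibroblasts, 3 of 7 higher. Their part in the 9 genes was not tested.

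Some arrays stood to 1 side of their region for many of the genes. PV2, the single PV array of the first slide row, was the lowest PV array for 22 of the 32 genes, with a median deviation of −0.31 from the PV mean. SA4 was the highest SA array for 20 of the 32 (median deviation 0.18). In PA the first-row arrays PA1 and PA3 were lowest for 15 and 14 genes, and PA2 and PA4 highest for 15 and 12. With slide row as a block the counts were 26 higher and 5 lower in PA, 21 and 0 in PV and 18 and 0 in SA. Within the first row alone, with 1 PV and 1 SA array, 28 of the 31 PA calls held, 9 of the 21 PV calls and 5 of the 18 SA calls, and within the second row 27, 21 and 13. All 31, 21 and 18 differences kept their sign in both rows.

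The chambers differed among themselves. LA was higher than the ventricles for 6 of the 32 genes and lower for 11, where 16.9% and 18.4% of all genes were called (35.4% together), and the median difference was −0.30 (all genes −0.09). Pdlim3 (3.12-fold), Myl9 (1.86-fold), Gucy1a1 (1.77-fold), Ldb3 (1.40-fold), Vcl (1.34-fold) and Prkg1 were higher in LA. With the mean of all probes the log2 difference of Pdlim3 was 0.87 (adjusted p = 0.000625), its other probe, A_64_P028895, reading 6.80 in LA, 6.68 in LV and 6.71 in RV, and Ldb3 was not called (0.20, adjusted p = 0.205). Prkg1 read 6.90, 6.36, 6.19 and 5.94 in LA against 4.05 to 5.34 in the ventricles, where 4 of 7 arrays were not well above background, so that its size is uncertain, with a log2 difference of 1.66 in the fit and 0.63 with normexp background correction. Rgs5 was the most lowered, by −1.50 ± 0.16 (adjusted p = 3.42e-07), followed by Actg2 (−1.02), Cnn1 (−0.95), Tagln (−0.73), Des (−0.70) and Acta2 (−0.58). Mylk, Notch3, Tpm1, Flna and Ppp1r12b differed by −0.40 to −0.56. For Ppp1r12b this sets unlike probes against each other. Its highest probe was A_43_P13575 on 4 LA arrays and A_44_P1111988 on 4 LV and 2 RV arrays. All LA arrays lay above all ventricular arrays for 5 genes and below them for 6 (12.5% of all genes each way). The smallest of these calls, Ppp1r12b (adjusted p = 0.0443), was lost in many settings, among them without LA1 (0.160), LA2 (0.118) or RV1 (0.0926).

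**Figure D5:**
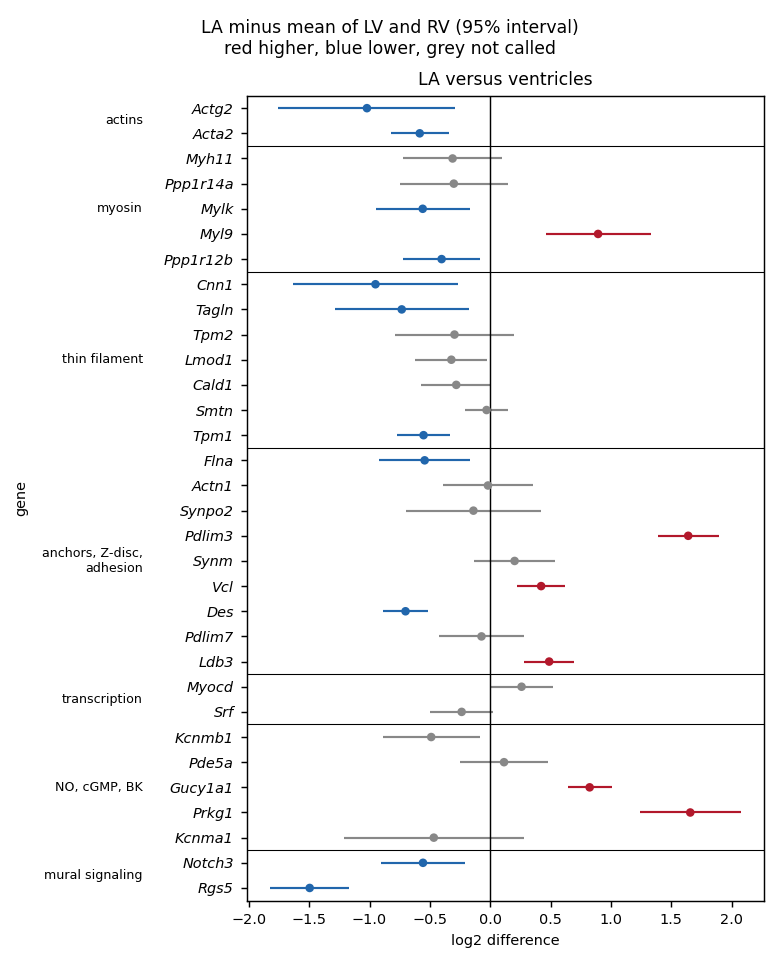
Difference of LA from the mean of LV and RV for each of the 32 genes, on the log2(signal + 1) scale with 95% intervals. Prkg1 and Pdlim3 lie at 1.66 and 1.64, Rgs5 lies at −1.50, and the intervals of Actg2, Cnn1 and Tagln come close to 0.

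The calls for Acta2, Des, Rgs5, Gucy1a1, Pdlim3 and Prkg1 between atrium and ventricle held in every setting tried, whereas Actg2 and Tagln lost theirs when only the chamber arrays were fitted (adjusted p = 0.0819 and 0.110) and without LA2 (0.0575 and 0.0877), LA3 (0.0590 and 0.0569), LA4 (0.0995 and 0.117), RV2 (0.0563 and 0.0819) or RV3 (0.0680 and 0.0677). Cnn1 was at −0.60 without LA2 (adjusted p = 0.158), the array with its lowest value (3.49), and at −0.31 with normexp background correction (adjusted p = 0.233). The number of lower genes was 6 without LA2, 7 without LA4 and 7 without RV3. All 6 pericyte markers were lower in LA than in the ventricles, with sums of 14775 to 16829 in LA, 26758 to 32588 in LV and 26302 to 30227 in RV. Endothelial sums were lower too (38943 to 50651 in LA, 66926 to 82443 in the ventricles), as were those of cardiac muscle (2905630 to 3504950 against 4238320 to 5298400) and skeletal muscle (8358 to 24259 against 28706 to 54310). Schwann cell sums were higher (3792 to 5658 against 1617 to 3305), 4 of 5 mesothelial markers were higher in LA, and the part of any of these in the members was not tested. Between LV and RV limma called 0 of the 32 genes in either direction (0.298% and 0.224% of all genes were called, 0.522% together). At an unadjusted p under 0.05, 5 were lower in LV, namely Myl9, Tpm2, Actg2, Myh11 and Tagln, and 0 higher (6.04% and 4.69% of all genes). All LV arrays lay above all RV arrays for Gucy1a1 and below them for Myl9, where this held for 4.89% and 5.43% of all genes.

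Other genes of the smooth muscle program moved the same way in part. Of 72 listed, 61 were tested, and 44 were higher and 9 lower in PA than in the chambers, with a median of 1.44. Of all genes, 30.0% were higher and 28.1% lower there. In PV 24 were higher and 9 lower, with a median of 0.16 (11.6% and 13.1% of all genes were called). In SA 17 were higher and 9 lower, with a median of 0.03 (8.97% and 11.7% of all genes). The largest PA difference was that of Itga8, an integrin subunit, at 8.54 on the log2 scale, with 3.50 in PV and 1.34 in SA. Csrp2 and Csrp1, LIM proteins of smooth muscle, were higher in PA by 4.90 and 4.65, and the homeobox gene Prrx1, the potassium channel subunit Kcnab1 and the adhesion protein Lpp by 4.10, 3.93 and 3.54. Adra1d, an alpha-1 adrenergic receptor, was higher in PA by 3.51 but lower in PV by −0.81 and in SA by −0.52. Fhl2, a LIM protein abundant in heart muscle, was lower by −4.91 in PA, −2.77 in PV and −2.19 in SA.

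The pattern of Myh11 over the 23 arrays was shared most closely by Tpm2 (Pearson r = 0.996) and Tagln (0.994) among the 32. Among genes outside the set, the 8 most alike were Plac9 (0.990), Irag1 (0.986), Itga8 (0.980), Csrp1 (0.979), Ddr2 (0.978), Sorcs2 (0.975), Cyb561 (0.974) and Ntrk3 (0.974), out of 16083 genes compared. The arrays fall into 6 regions with PA far from the rest, so these values describe the regional pattern and no more. At the other end of the 32 stood Ldb3 (−0.77) and Tpm1 (−0.65).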

How the data were processed

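RNA from 23 rat tissue samples was labeled with Cy3 and hybridized to Agilent SurePrint G3 Rat 8 × 60K arrays, 1 array per sample. The authors deposited scanner intensity files (Agilent Feature Extraction 11.0.1.1, per the submitters' processing notes) and a table of normalized signal intensity, which the authors had background-subtracted, detrended and scaled to a common 90th percentile. The deposited values equaled the scanner's processed signal times 1 factor per array within 2% for 99.2% to 99.7% of probes. Of 45596 probes, 156 with a missing value were left out, and 21102 were named through the RefSeq accession in the scanner files.

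The level of a gene was the log2 of the deposited signal plus 1 at its highest probe on each array, and genes above 4 on at least 1 array were kept. Group means were fitted by limma 3.58.1 (R 4.3.3) on all 23 arrays, with Benjamini-Hochberg adjustment over 16084 genes and a threshold of 0.05, two-sided. Fold changes are on this log2 scale, where the added 1 understates those of low genes and the background correction moves them as well. The number of arrays limits the precision.

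The 32 genes, the other lists and the tests were chosen with earlier results of these data known. Values on each array were given for the genes with the highest and lowest PA difference in each role group, for genes shared with chamber muscle and for those whose direction differed between regions, with a few added after their values were seen. Alternatives covered scaling, background correction, probe choice, pseudocount, filter, blocks, arrays in the fit, reference regions and leaving out each array. The planned normexp correction used median in place of mean spot signals, which these files do not hold. It added an offset of 50, and the part of this offset in its smaller differences for low genes was not tested. Fits within each slide row were added after seeing the data.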

Additional observations from a re-analysis of the deposited data

Results flagged for a closer look

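In groups of 4 arrays, 160 groups of values (32 genes in 5 regions) were examined for 1 array standing apart, and 16 did so by Dixon's criterion at the 95% level, where chance alone gives about 8. PV2 stood below the other PV arrays for Tagln (13.60 on the log2 scale), Lmod1 (9.42), Kcnmb1 (7.28) and Actn1 (9.39), and it was the single PV array in the first slide row. SA4 stood above the other SA arrays for Actg2 (14.41) and Tagln (13.60) and below them for Notch3 (8.84). In PA, PA3 was low for Tagln (17.31) and Cnn1 (12.83), PA1 was low for Gucy1a1 (10.86), and PA4 was high for Myl9 (17.64). In LV, LV4 was high for Acta2 (11.03) and low for Vcl (11.49), LV1 was low for Cald1 (12.22) and LV2 was low for Synm (12.36). In LA, LA4 was high for Notch3 (9.26). Each is given as a value, and no cause was tested.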

How the results depend on the processing

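Of the calls made, 25 of 31 in PA, 9 of 21 in PV and 5 of 18 in SA against the chambers kept their direction and side of the threshold in every setting, as did 24 of 30 for PA against PV, 24 of 29 for PA against SA, 6 of 17 for LA against the ventricles and 0 of 9 for PV against SA. Leaving aside the fits within a slide row and those against other reference regions, 27 of 31, 19 of 21 and 16 of 18 were kept. Row 1 holds 1 array each of PV and SA and row 2 holds 1 each of LA and RV, and such a lone array is assumed to vary like the other groups. The causes of other changes were not tested. Counts changed as follows. For PV against SA, higher genes numbered 0 with only the arrays compared and 0 in row 2, each by limma. At an unadjusted p under 0.05 these fits gave 16 and 17 of 32 higher, against 9.11% and 7.75% of all genes. Row 1 sets 1 PV array against 1 SA array and cannot decide these calls. Lower genes in PA against the chambers numbered 2 against LA alone and 2 in row 2 (3500 of all 15737 genes there). Lower genes in SA were 1 against LA alone and 1 against LV and RV, and in PV 1 against LV and RV. Row 1 gave 9 higher genes in PV and 5 in SA, 3 lower in LA and 2 lower in PA against PV, where 385, 174, 1740 and 2453 of all 15600 genes were called. Row 2 gave 3 higher and 6 lower in LA and 2 lower in PA against PV, where 835, 977 and 3105 of 15737 were called. Leaving out 1 array gave, higher and lower, 25 to 26 and 3 to 5 in PA, 20 to 22 and 0 to 0 in PV, 17 to 19 and 0 to 0 in SA, 24 to 26 and 4 to 5 for PA against PV, 24 to 25 and 4 to 5 for PA against SA, 4 to 13 and 0 to 0 for PV against SA, 6 to 7 and 6 to 12 for LA, and 0 to 0 for LV against RV. Without PA1 the lower genes in PA numbered 3.

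Directions reversed as follows. Quantile normalization gave Des 0.17 in PA against the chambers and 0.10 against SA, and normexp gave 0.069 and 0.0010. The mean of all probes gave Pdlim7 1.06 in PA against the chambers, 0.66 against PV and 0.83 against SA, and Tpm2 0.63 in LA against the ventricles. Against LA alone, PA had Des 0.20 and Rgs5 0.42, PV had Des 0.37 and Pdlim3 −0.088, and SA had Gucy1a1 −0.10, Pdlim3 −0.54, Prkg1 −0.27 and Rgs5 0.84.

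With the replicate number as a block the counts were 26 higher and 5 lower in PA, 21 and 0 in PV and 18 and 0 in SA. The numbers are not a pairing shown by the design: of 55 same-number pairs 12 had residual correlations above 0.1 (−0.38 to 0.34), and 4 of 23 arrays were closest to their own number.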
